A study of Rattus norvegicus with 18 samples.

Results

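Mllt11, Isyna1, Lonrf1_predicted, Ly6g6c and Gng7 are 5 genes whose RNA was higher in primary rat cortical neurons after CHD5 depletion than in control neurons on at least 1 of 3 days. They were chosen for that rise on these same arrays, so their differences between the lentiviruses describe the choice and are given with a standard error (SE) and no test. They are 5 of the 10797 gene symbols with a kept probe, and a probe was kept when its detection p-value was at most 0.02 on at least 1 of the 18 arrays (11079 of 22523 probes). The array had 1 probe for each of the genes except Isyna1, which had 2, and the probe with the higher mean signal was used. The genes carried the array file's chromosome bands 2q34 (Mllt11), 16p14 (Isyna1), 16q12.2 (Lonrf1_predicted), 20p12 (Ly6g6c) and 7q11 (Gng7).

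Cortical neurons of embryonic rats were exposed for 6 hours on day 1 of culture to lentivirus made with the pLKO.1 vector, in every group, and the share of neurons infected was not measured here. The CHD5 shRNA lentivirus expressed an shRNA against CHD5, and the control lentivirus expressed a scramble shRNA. RNA was harvested on day 5, 9 or 12, and the 6 groups of lentivirus and day held 3 arrays apiece, lettered a, b and c. A single shRNA against CHD5 was used for the arrays, so CHD5 depletion and any other effect of that shRNA cannot be told apart here. The labels do not say whether the letters stand for separate cultures, so a p-value measures only the spread between these arrays, which may be technical.

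CHD5 is a chromatin remodeling ATPase of the chromodomain helicase family that is found mainly in neurons, where it is part of complexes with histone deacetylases. The 5 genes have unrelated products. Isyna1 makes inositol phosphate from glucose 6-phosphate, Gng7 is a gamma subunit of heterotrimeric G proteins, Mllt11 (also known as AF1q) is a small protein known as a fusion partner of MLL in leukemia and from differentiating neurons, Lonrf1 belongs to a family with RING and LON domains, as found in ubiquitin ligases, and Ly6g6c is a member of the Ly6 family of small, disulfide-rich proteins held at the cell surface by a lipid anchor.

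The signal of a probe was averaged over its beads on each Illumina RatRef-12 array, without normalization or background subtraction. For comparison between arrays, log2 signals were converted to Z-scores on each array and multiplied by the mean standard deviation (SD) of the arrays, which gave normalized log2 signals. The mean signal was 400.2 to 789 on 17 arrays. It was 135 for control replicate b of day 9, where 7047 probes were detected and the SD of the log2 signals was 1.11 (1.72 to 2.02 on the others). That array correlated with its nearest array by 0.955, against 0.992 or more for the others. The day 9 differences of the 5 genes are therefore also given without it. The array had 0 probes annotated to Chd5, so the depletion itself was not measured here. In limma's fit to all 6 groups, a probe was called when its Benjamini-Hochberg adjusted p over all 11079 probes was under 0.05. Probes called higher with CHD5 shRNA numbered 5 at day 5 (0.0451%), 404 at day 9 (3.65%) and 247 at day 12 (2.23%). Without control array b of day 9 these numbers were 49, 445 and 679. Called in either direction were 0.171%, 5.89% and 5.47% of all probes at days 5, 9 and 12. Of those called at day 9, 61.9% were higher, against 50.9% with quantile normalization, 52.1% with neqc, 46.2% with median centring and 37.8% when that array was left out. At day 5 the share was 26.3% (0% with median centring, which called 2 probes), and at day 12 it was 40.8% (30.2% with median centring).

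The probes of 3 of the genes are shown because they say which stretch of RNA was measured. Sequences are as deposited, 50 bases each, 5′ to 3′, and each occurred on 1 probe of the array. For Isyna1 the probe shown is the other of the 2.
Mllt11: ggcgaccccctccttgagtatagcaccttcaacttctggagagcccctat
Isyna1, other probe: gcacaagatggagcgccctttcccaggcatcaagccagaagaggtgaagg
Lonrf1_predicted: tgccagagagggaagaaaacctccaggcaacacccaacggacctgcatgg

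Promoter sequence is shown for Mllt11 and Isyna1, which had the largest differences of the 5 genes. The 250 bases before the start of each gene were read from RefSeq (build GRCr8), and 3 of the 5 genes were matched (Mllt11, Isyna1 and Gng7). Both strands were searched for TATAAA, known from the TATA box, for GGGCGG, known as the GC box, and for CCAAT. They were also searched for CACGTG, known as an E box, for TGACG, the core of the cAMP response element, for the whole element TGACGTCA, which includes that core, and for TTCAGCACC, the left part of the RE1 element, and capitals mark what was found.
Mllt11, chr2:185493962-185494211, minus strand: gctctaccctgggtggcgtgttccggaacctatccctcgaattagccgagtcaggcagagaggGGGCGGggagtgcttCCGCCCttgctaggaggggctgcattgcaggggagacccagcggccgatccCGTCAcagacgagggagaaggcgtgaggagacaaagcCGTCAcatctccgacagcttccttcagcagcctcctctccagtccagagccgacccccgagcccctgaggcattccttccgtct
Isyna1, chr16:18875956-18876205, minus strand: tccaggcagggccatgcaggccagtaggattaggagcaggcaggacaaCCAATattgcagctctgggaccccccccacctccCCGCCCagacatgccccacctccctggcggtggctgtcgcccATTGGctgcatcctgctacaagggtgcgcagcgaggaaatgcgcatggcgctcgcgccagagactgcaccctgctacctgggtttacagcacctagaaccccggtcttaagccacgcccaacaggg
Both held GGGCGG, which 30.5% of 33469 promoter windows held on either strand. Mllt11 held it at -187 and, on the other strand, at -172, counted in bases before the start of the gene. Mllt11 also held TGACG on the other strand at -121 and -84 (18.2% of windows), and Isyna1 held CCAAT at -202 and, on the other strand, at -126 (34.0% of windows). None of the letters searched was found in the Gng7 window. The G and C content was 64.0% for both Mllt11 and Isyna1 and 56.4% for Gng7, against a median of 51.2% over all windows.

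The neuronal label was compared with marker genes. Of 12 neuron markers listed, 11 were kept, and each was detected on all 18 arrays. The median log2 difference of these 11 was -0.08, 0.13 and 0.16 at days 5, 9 and 12, with 4, 7 and 7 of them positive. It was 0.23 at day 9 without control array b of that day. Tubb3, a neuronal tubulin, was called higher with CHD5 shRNA at day 9 (0.55 on the log2 scale, SE 0.13, limma adjusted p = 0.0175) and at day 12 (0.53, SE 0.13, limma adjusted p = 0.0185), and the other 10 were not called. Astrocyte markers were detected as well, and 5 of the 9 kept were called lower with CHD5 shRNA on day 9, as were 5 on day 12. Of the 9, 0 had a positive difference at day 9 and 2 at day 12. Their median difference was -0.11, -1.09 and -0.54 at days 5, 9 and 12, against 0.01, -0.02 and 0.01 over all probes. The gap junction gene Gja1 had a day 9 difference of -1.29 (SE 0.22, limma adjusted p = 0.00337), and S100b, a calcium-binding protein of astrocytes, was lower at day 12 (-1.28, SE 0.15, limma adjusted p = 5.25e-05).

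The summed signal of the 9 astrocyte markers was 38640 to 58770 on the control arrays and 33320 to 50650 on the CHD5 shRNA arrays at day 5. At day 12 it was 82710 to 88720 and 59570 to 66440. At day 9 it was 64820 to 65940 on control arrays a and c, 22140 on control array b, and 42320 to 51290 with CHD5 shRNA. When that array was left out of the fit, 1, 5 and 6 astrocyte markers were called lower at days 5, 9 and 12. The day 9 median of the 9 markers was then -0.69. Astrocyte Gjb6 was not kept. Of 9 markers of the oligodendrocyte lineage, 2, Cnp among them, were called lower at days 9 and 12. The summed signal of the 9 at day 12 was 17700 to 20630 on control arrays and 12820 to 14780 with CHD5 shRNA. At day 9 it was 13770 to 18130 on control arrays a and c and 10430 to 12110 with CHD5 shRNA. The median difference of these markers was -0.19 at day 9. When control array b of day 9 was left out, it was -0.02, with 3 markers called lower and 1 higher at day 9. Of 5 fibroblast markers kept, 3 were called lower at day 9 and 2 at day 12. Their summed signal at day 12 was 664 to 763 on control arrays and 582 to 652 with CHD5 shRNA. The 2 called at day 12 were Dcn (-0.69, detected on 11 arrays) and Lum (-0.59). Lum was detected on only 1 array, so its difference rests on signals near background. The others were not called at day 12, with differences of 0.21 (Col1a2), 0.22 (Fn1) and -0.20 (Fbln1). Col1a1 and Col3a1 were not kept. For microglia and for endothelial cells and pericytes 2 markers each were kept and none was called at any day by limma. Of the 4 interferon response genes and 7 proliferation genes kept, 0 were called at any day, with 2 interferon response genes at an unadjusted p under 0.05 at days 9 and 12 and 2, 1 and 1 proliferation genes at days 5, 9 and 12. When control array b of day 9 was left out, limma called 1 interferon response gene lower at day 9 and 1 at day 12, and 2 proliferation genes lower at day 5 and 1 at day 12. The differences of the 5 genes below were measured on the same arrays as these glial differences, and the part of glial RNA in them was not tested. In RNA of whole cultures, fewer cells of a type and less RNA per cell cannot be told apart.

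**Figure D1:**
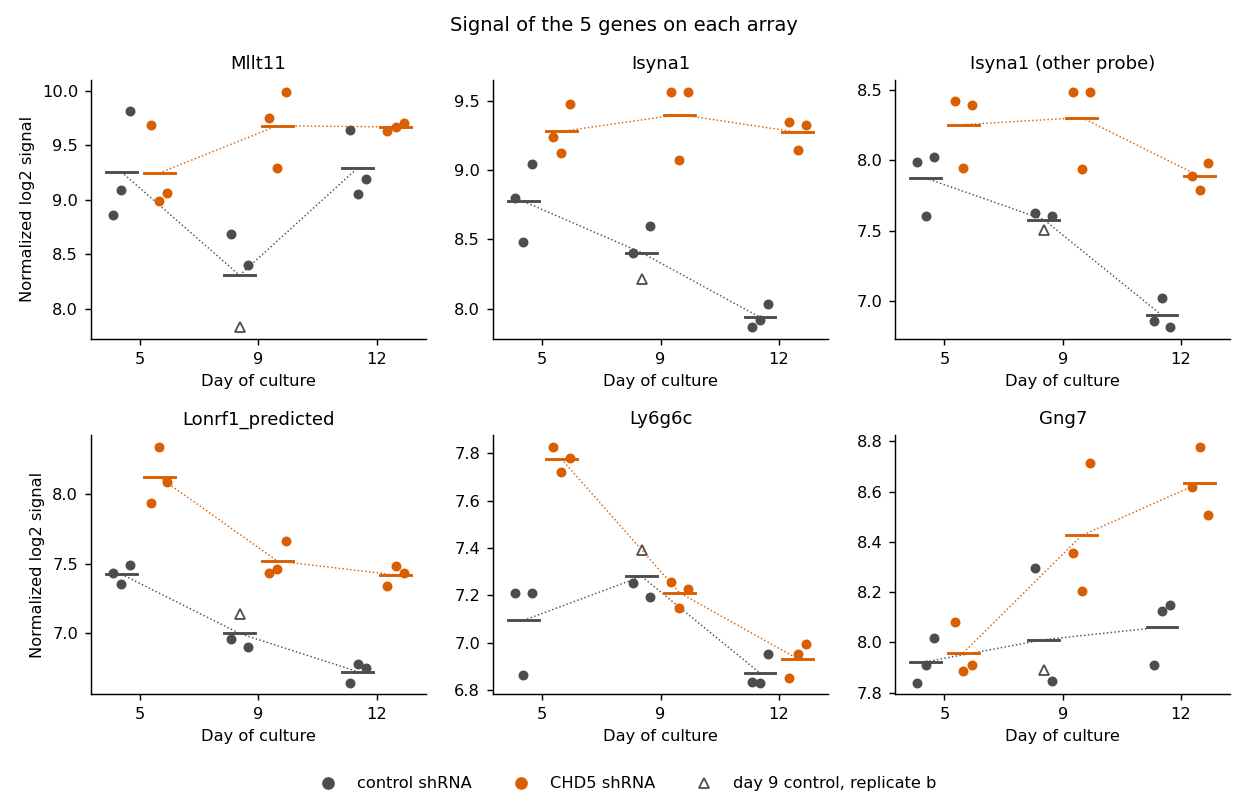
Normalized log2 signal (vertical axes, scaled separately) of the 5 genes and of the other Isyna1 probe on each of the 18 arrays, by day of culture. Points are arrays, short bars are means of 3 arrays, dotted lines join the means, and the open triangle is control array b of day 9. Control arrays are grey and CHD5 shRNA arrays orange. The groups of the Isyna1 probe used are separate on every day, the Ly6g6c groups only at day 5 and the Gng7 groups only at day 12.

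Across the 5 genes, all 3 CHD5 shRNA arrays were above all 3 control arrays for 3 genes at day 5 (5.15% of all kept probes), for 3 at day 9 (12.4%) and for 3 at day 12 (19.9%), although not for the same genes. The 5 genes followed different courses. The mean difference was larger at each later day for Isyna1 and Gng7. From day 9 to day 12 it grew by 0.34 (SE 0.22) for Isyna1 and by 0.16 (SE 0.20) for Gng7. For Gng7 that last step was smaller than its SE. The difference stayed within 0.52 to 0.70 for Lonrf1_predicted and was largest at day 9 for Mllt11. For Ly6g6c it was 0.68 at day 5 and at most 0.06 later.

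Isyna1 catalyzes the committed step of the synthesis of inositol, the precursor of phosphoinositides. On the control arrays its signal was 682, 386 and 574 at day 5 (replicates a, b and c), 384, 117 and 344 at day 9, and on day 12 it was 249, 243 and 295. On the CHD5 shRNA arrays it was 734, 795 and 750 at day 5, 720, 452 and 639 at day 9, and on day 12 it was 727, 563 and 629. The signals with CHD5 shRNA were above the control signals on every day, without overlap, and control array b of day 9 had the lowest signal of all. In normalized signal the difference was 0.51 at day 5, 1.00 at day 9 and 1.34 at day 12 (SE 0.16 each, n = 3 arrays per group), which is 1.42-fold, 2.0-fold and 2.52-fold. At day 12 it ranked 3 among all 11079 differences. Between days 5 and 12 the difference grew by 0.83 (SE 0.22). Without control array b of day 9 the day 9 difference was 0.92 (SE 0.16).

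The other Isyna1 probe, shown above, correlated with the probe used by 0.93 over the 18 arrays. Its difference was 0.38, 0.72 and 0.99 at days 5, 9 and 12 (SE 0.15 to 0.16), smaller than that of the probe used on each day, and its groups overlapped at day 5. In the order of the 6 groups the 3 CHD5 shRNA groups of the probe used came first, with means of 9.28 to 9.40 and arrays that overlapped, followed by control day 5 (8.78 ± 0.29, SD, n = 3), control day 9 (8.40 ± 0.19) and control day 12 (7.94 ± 0.09). Control arrays of days 5 and 9 overlapped, and those of day 12 were all below those of day 9.

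Many genes changed with time in culture. By limma 22.0% of all probes were called between days 5 and 9 in control neurons and 9.33% with CHD5 shRNA, and between days 9 and 12 the shares were 4.16% and 1.37%. The changes of the 5 genes with time use the same arrays as the differences that chose them, so that they too are given with their SE and no test. In control neurons the Isyna1 probe used differed by -0.37 from day 5 to day 9 and by -0.47 from day 9 to day 12 (SE 0.16 each), or by -0.28 and -0.58 without control array b of day 9. The other probe differed by -0.29 and -0.68 (SE 0.15 to 0.16). With CHD5 shRNA the probe used differed by 0.12 and -0.13.

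Other genes of inositol metabolism were mostly not called, as were most probes of the array (0.171%, 5.89% and 5.47% called at days 5, 9 and 12). Few calls are thus not particular to this list. Of 31 listed, 30 had a probe and 25 were kept. Inpp4a, an inositol polyphosphate phosphatase, was higher at day 12 (0.55, SE 0.12, limma adjusted p = 0.00744), and 0 of the 25 were called at day 5 and 0 at day 9 (limma, with 2 and 8 at an unadjusted p under 0.05). The median difference of the list was -0.01, 0.03 and 0.04. Without control array b of day 9, 1 gene of the list was called lower at day 9, and 2 were called higher and 2 lower at day 12. Impa1 and Impa2, the phosphatases that complete the path that Isyna1 begins, were not called. At day 12 they differed by -0.22 (SE 0.14) and -0.41 (SE 0.12, limma adjusted p = 0.051, just over the limit). Slc5a3, a transporter that brings inositol into cells, differed by -0.31 (SE 0.16) at day 5 and by 0.02 at day 12, and was not called.

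Gng7 is a gamma subunit that is abundant in the striatum, where it assembles with the alpha subunit Gnal and acts on adenylyl cyclase. Its signal on the control arrays was 323, 256 and 279 at day 5, 355, 102 and 204 at day 9, and on day 12 it was 257, 281 and 320. With CHD5 shRNA it was 316, 311 and 243, then 313, 253 and 362, then 435, 438 and 357. The groups overlapped at days 5 and 9 and were separate at day 12, when the lowest CHD5 shRNA array was above the highest control array. The normalized difference was 0.04 at day 5, 0.42 at day 9 and 0.57 at day 12 (SE 0.14 each, 1.49-fold at day 12). From day 5 to day 12 it grew by 0.54 (SE 0.20). With the second measurement of replicate a in place of the first, the day 12 difference was 0.42. The day 9 difference was 0.27 without CHD5 shRNA array c of that day, 0.36 (SE 0.14) without control array b and 0.56 without control array a.

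With CHD5 shRNA Gng7 differed by 0.47 from day 5 to day 9 and by 0.21 from day 9 to day 12 (SE 0.14 each). In control neurons the same changes were 0.09 and 0.05. The highest group means were those of CHD5 shRNA at day 12 (8.63 ± 0.14, SD, n = 3) and day 9 (8.42 ± 0.26), whose arrays overlapped, and the other 4 groups lay between 7.92 and 8.06 with overlap between neighbours.

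Of 40 genes listed as G protein subunits and striatal partners, 27 were kept. At day 9, 3 were called higher and 1 lower, and at day 12, 2 were called higher and 1 lower. The list medians were 0.05, 0.04 and 0.10 at days 5, 9 and 12. Adcy8, an adenylyl cyclase, was higher at day 9 (0.49, SE 0.10, limma adjusted p = 0.00797) and day 12 (0.55, SE 0.10, limma adjusted p = 0.00241). Gnb5, a beta subunit, was higher at day 9 (0.52, SE 0.11, limma adjusted p = 0.013), as was Pde10a, a phosphodiesterase of the striatum (0.40, SE 0.11, limma adjusted p = 0.0413). Ppp1r1b (DARPP-32), a phosphatase inhibitor of striatal neurons, was lower at day 9 (-0.60, SE 0.11, limma adjusted p = 0.00355) and day 12 (-0.68, SE 0.11, limma adjusted p = 0.000814). Of the other gamma subunits Gng8, Gng10 and Gng12 were kept and none was called, with differences between -0.23 and 0.12.

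Mllt11 had the largest difference of all probes at day 9 and little at day 5. Its signal on the control arrays was 718, 599 and 984 at day 5, 475, 99.2 and 300.1 at day 9, and on day 12 it was 879.7, 533 and 667. With CHD5 shRNA it was 1019, 718 and 555 at day 5, 817, 526 and 848 at day 9, and on day 12 it was 889, 808 and 814. The control arrays of day 9 were low, and the groups overlapped at days 5 and 12. The normalized difference was -0.01 at day 5, 1.37 at day 9 (2.59-fold) and 0.38 at day 12 (SE 0.26 each). It was 1.16 (SE 0.25) at day 9 without the control array of replicate b, whose normalized signal of 7.83 was the lowest of the 18. The day 12 difference was 0.25 to 0.55 when 1 array was left out, lowest without control array b and highest without control array a of that day.

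Within letters the day 5 differences of Mllt11 were 0.82, -0.10 and -0.76 for replicates a, b and c, which span more than its day 12 difference. The SD of its 3 CHD5 shRNA arrays was 0.38 at day 5, 0.35 at day 9, and on day 12 it was 0.04. In the order of group means, control day 9 (8.31 ± 0.44, SD, n = 3) stood below the next group without overlap, and the 5 other groups, from 9.25 to 9.68, overlapped with their neighbours.

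In control neurons Mllt11 differed by -0.95 from day 5 to day 9 and by 0.99 from day 9 to day 12 (SE 0.26 each), or by -0.73 and 0.76 without control array b of day 9. With CHD5 shRNA it differed by 0.43 and -0.01. The low level of the day 9 control arrays thus enters both its day 9 difference and both of these changes in control neurons.

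The list of MLL fusion partners and of the TCF/LEF pathway, in which Mllt11 acts as a cofactor, had 26 of 39 genes kept. Mllt1, an MLL fusion partner listed on the array as LOC301119, was the 1 called gene and was higher at day 9 (0.44, SE 0.10, limma adjusted p = 0.0184) and day 12 (0.68, SE 0.10, limma adjusted p = 0.000683). The list medians were -0.03, 0.01 and -0.03. Mllt3, Mllt4 and Mllt10 were not called, with differences between -0.01 and 0.40. Without control array b of day 9, 5 genes of the list were called at 1 or more days.

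Lonrf1_predicted had groups that were separate on all 3 days, as had Isyna1, and a difference that varied little between days. Its signal on the control arrays was 235, 172 and 192.5 at day 5, 132, 73.7 and 106 at day 9, and on day 12 it was 105, 111 and 119. With CHD5 shRNA it was 284, 436 and 276, then 166, 153 and 179, then 177, 180.0 and 171. The signal was near background in control neurons at later days, and at the detection limit of 0.02 it was not detected on control array b of day 9 or control array a of day 12. The normalized difference was 0.70 at day 5, the largest of all probes on that day, 0.52 at day 9 and 0.69 at day 12 (SE 0.11 each, 1.43-fold to 1.62-fold). The same differences after background correction with neqc were 0.96, 1.21 and 1.25. Without control array b of day 9 the day 9 difference was 0.60 (SE 0.11).

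At day 5 the letters were taken as pairing the arrays, on weak correlations of 0.168 to 0.377. The differences within letters were 0.51, 0.98 and 0.60. With the letter as a replicate block within the day the SE was 0.12, and 1 probe of the array was called higher at day 5 in place of 5. Without CHD5 shRNA array b of day 5 the day 5 difference was 0.58, and without CHD5 shRNA array c of day 9 the day 9 difference was 0.45.

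The level of Lonrf1_predicted was lower at later days in both groups. From day 5 to day 9 it differed by -0.42 in control neurons and by -0.60 with CHD5 shRNA (SE 0.11 each), and from day 9 to day 12 by -0.27 and -0.10. By group mean the order was CHD5 shRNA day 5 (8.12 ± 0.20, SD, n = 3), CHD5 shRNA day 9 (7.52 ± 0.12), control day 5 (7.42 ± 0.07), CHD5 shRNA day 12 (7.42 ± 0.07), control day 9 (7.0 ± 0.12) and control day 12 (6.73 ± 0.07). CHD5 shRNA day 9, control day 5 and CHD5 shRNA day 12 overlapped with their neighbours in that order, and the level with CHD5 shRNA at days 9 and 12 lay at that of control neurons at day 5.

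Among ubiquitin ligases with a Lon domain or a part in quality control, 22 of 27 listed were kept. Siah2 (0.71, SE 0.17, limma adjusted p = 0.0214) and Trim3 (0.61, SE 0.15, limma adjusted p = 0.0209), both RING-type ligases, were higher at day 9, and 0 were called at days 5 and 12 (limma, with 1 and 3 at an unadjusted p under 0.05). The list medians were 0.07, 0.13 and 0.06, with all-probe medians of 0.01, -0.02 and 0.01. Lonrf2, of the same family as Lonrf1, was not called and differed by -0.05 at day 5, 0.11 at day 9 and 0.40 at day 12 (SE 0.12), and Lonrf3 was not kept.

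Ly6g6c had its difference between the lentiviruses at day 5, with values near 0 later. Its signal on the control arrays was 198, 121 and 158.5 at day 5, 163.5, 82.2 and 129.8 at day 9, and on day 12 it was 119.6, 115 and 137. With CHD5 shRNA it was 262, 274 and 222 at day 5, 147, 124.5 and 135 at day 9, and on day 12 it was 125, 125 and 126. The highest of these signals were on the CHD5 shRNA arrays of day 5, and the groups overlapped at days 9 and 12. The signal was near background in both groups at days 9 and 12, where a difference is harder to see, although the probe was detected on all 18 arrays. After background correction with neqc the difference was 1.01 at day 5 and 0.11 at day 12. The day 9 difference was -0.11 to 0.02 over all alternatives, neqc among them. The normalized difference was 0.68 at day 5 (1.6-fold), -0.07 at day 9 and 0.06 at day 12 (SE 0.10 each). At day 5 it ranked 2 among all probes, and from day 5 to day 9 the difference shrank (-0.75, SE 0.14). Without control array b of day 5 the day 5 difference was 0.56, and without control array b of day 9 the day 9 difference was -0.01 (SE 0.10).

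With CHD5 shRNA Ly6g6c differed by -0.56 from day 5 to day 9 and by -0.28 from day 9 to day 12 (SE 0.10 each). In control neurons these changes were 0.19 and -0.41. The high CHD5 shRNA arrays of day 5 enter both its day 5 difference and the first of these changes. CHD5 shRNA at day 5 (7.78 ± 0.05, SD, n = 3) stood above the other 5 groups without overlap, and those, from 6.87 to 7.28, overlapped with their neighbours.

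Of the other Ly6 and uPAR domain genes 7 of 26 listed were kept, and 12 had a probe that was not. Ly6h, a neuronal member, was higher at day 9 (0.74, SE 0.20, limma adjusted p = 0.0376), and Cd59, an inhibitor of complement, was lower at day 12 (-0.36, SE 0.10, limma adjusted p = 0.041). Ly6e differed by 0.43 at day 9 (SE 0.23) and Ly6g6e by 0.04, and neither was called. Ly6g6d and Ly6g6f were not kept. The list medians were -0.01, 0.08 and 0.01.

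**Figure D2:**
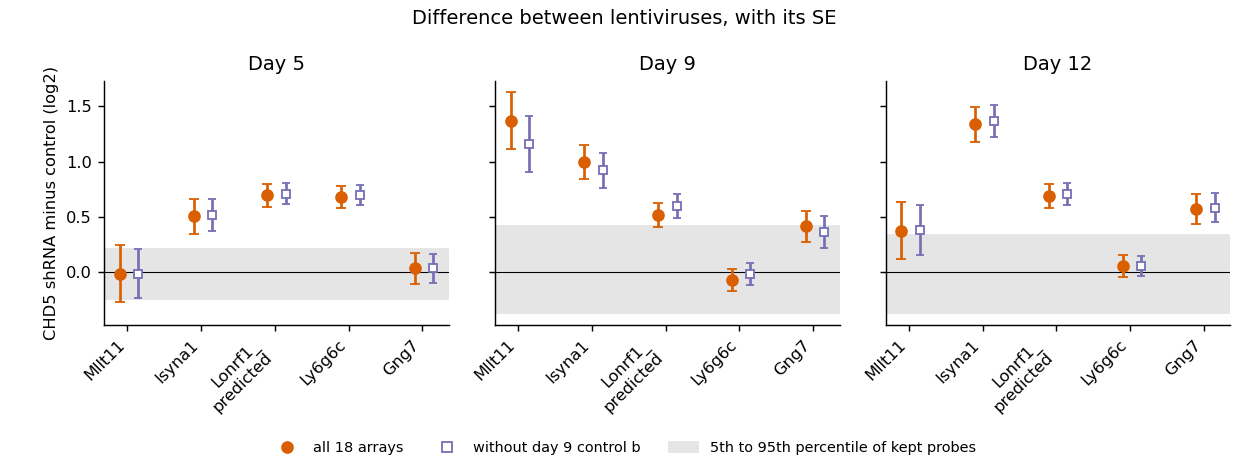
Difference in normalized log2 signal between CHD5 shRNA and control arrays for the 5 genes at days 5, 9 and 12, with its SE, on all 18 arrays (filled circles) and without control array b of day 9 (open squares). The grey band spans the 5th to the 95th percentile of all 11079 probes. Lonrf1_predicted and Isyna1 are above the band on all 3 days, Mllt11 at day 9 and, by a little, at day 12, Gng7 at day 12 and Ly6g6c at day 5.

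The 6 samples of replicate a had been measured a second time, which gave each difference within that letter once more. For Isyna1 the differences of the 2 measurements were 0.44 and 0.66 (day 5), 1.16 and 1.38 (day 9), and 1.48 and 1.51 (day 12). For Lonrf1_predicted they were 0.51 and 0.54, 0.47 and 0.68, and 0.70 and 0.60. Both genes were higher with CHD5 shRNA in either measurement on every day. The 2 measurements are of the same samples and correlated by 0.997 to 0.998, so the second is not a separate replicate. Gng7 differed most between measurements, with 0.06 and 0.32 at day 9 and 0.71 and 0.26 at day 12. Within this letter the order of those days for Gng7 thus depended on the measurement. For Mllt11 the day 12 values were -0.01 and -0.21, whereas letters b and c gave 0.62 and 0.51.

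**Figure D3:**
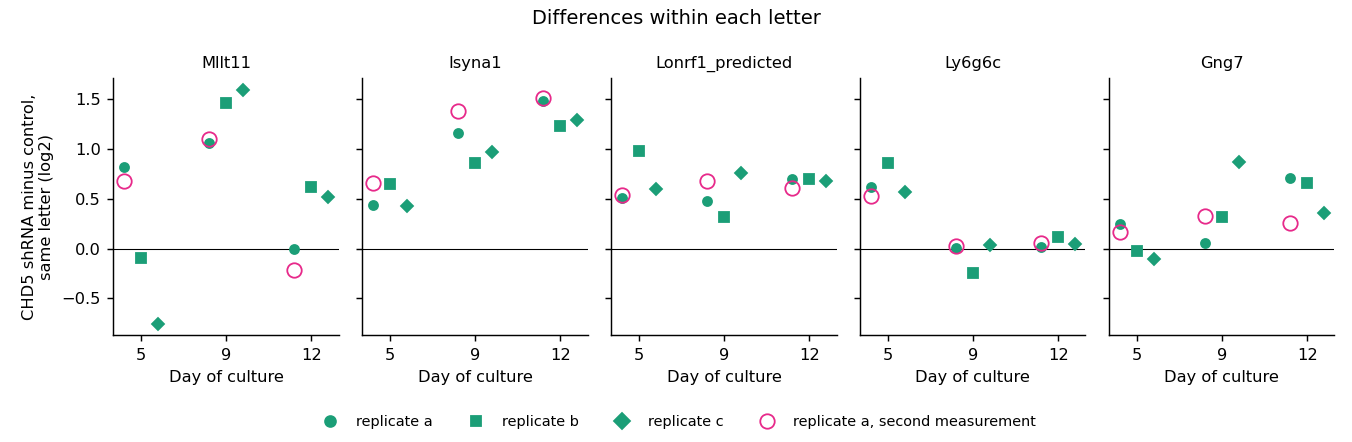
Difference in normalized log2 signal between the CHD5 shRNA and the control array of the same letter, for each gene and day of culture. Filled symbols are replicates a, b and c, and the open circle is the second measurement of replicate a. All letters of Isyna1 and Lonrf1_predicted are above 0 on every day, which follows from their separate groups. Those of Mllt11 at day 5 lie on both sides of 0.

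Over the 18 arrays the 5 genes varied together to different degrees. Pearson's r, given as a description since the arrays share groups, days and normalization, was 0.78 for Isyna1 and Lonrf1_predicted, 0.74 for Lonrf1_predicted and Ly6g6c, 0.59 for Mllt11 and Gng7 and 0.51 for Mllt11 and Isyna1. It was lowest for Ly6g6c and Gng7 (-0.33). Among all other genes with a symbol, those most like each gene over the 18 arrays had r of 0.87 to 0.95.

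Most like Isyna1 was Nipsnap3a (r = 0.95), with differences of 0.20, 0.68 and 0.81 at days 5, 9 and 12, then Acta1, the actin of skeletal muscle (r = 0.94, differences of 0.21, 0.77 and 1.03), and RGD1564876_predicted (r = 0.93). Most like Mllt11 were Rab11b, a GTPase of recycling endosomes (r = 0.93, with differences of 0.04, 0.74 and 0.25), Cacnb3, a calcium channel subunit (r = 0.92), and Ctnnd1_predicted, a catenin (r = 0.92). Lonrf1_predicted was followed most closely by the polarity gene Crb3 (r = 0.93, differences of 0.28, 0.44 and 0.51), by Myd116 (r = 0.93), known for its part in recovery from stress-induced arrest of translation, and by the Max-binding repressor Mnt_predicted (r = 0.92). For Ly6g6c they were Itgb1bp2_predicted (r = 0.92, differences of 0.31, -0.02 and -0.06), the splicing factor Rbm39 (r = 0.88) and Polr3f_predicted, an RNA polymerase III subunit (r = 0.88). For Gng7 they were the JNK scaffold Mapk8ip1 (r = 0.89, differences of -0.15, 0.46 and 0.47) and Klhdc8b (r = 0.87).

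**Figure D4:**
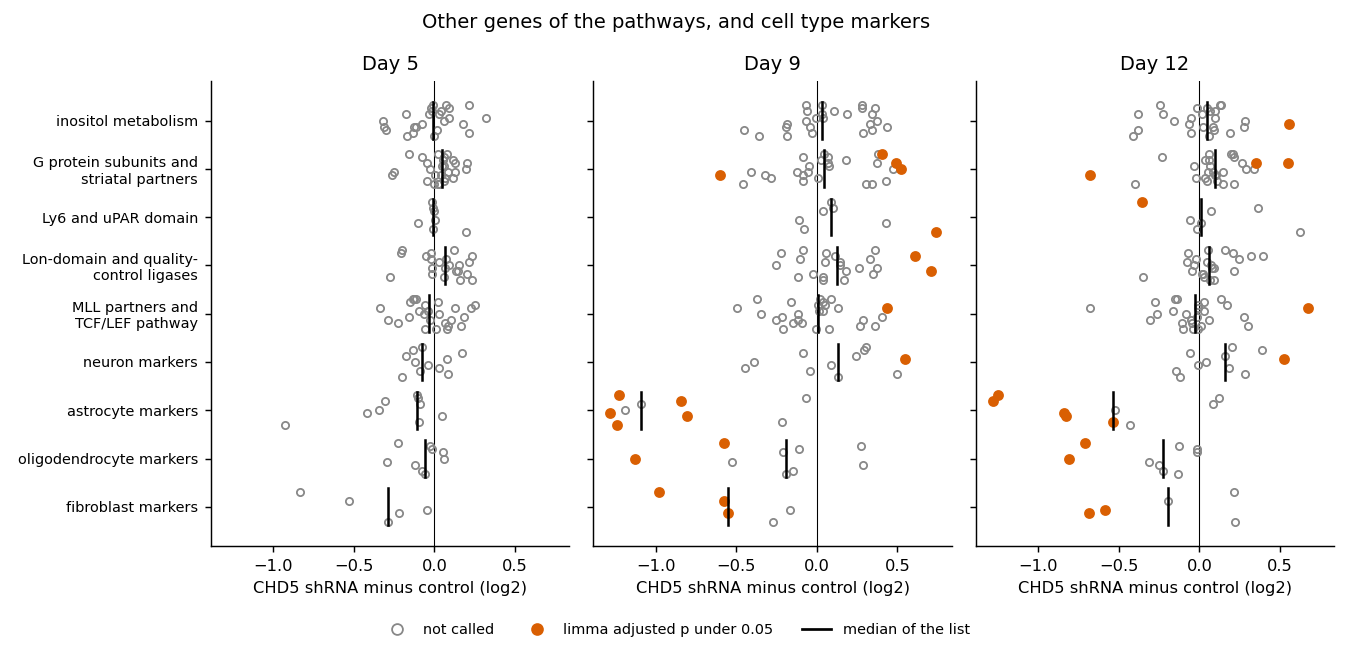
Difference in normalized log2 signal between CHD5 shRNA and control arrays (horizontal axes) for the kept genes of the 5 pathway lists and of 4 lists of cell type markers at days 5, 9 and 12. Filled orange points are genes with a limma adjusted p under 0.05, open grey points are the others, and vertical bars are list medians. At day 5 no gene of these lists was called, and at days 9 and 12 most of the called genes that were lower were markers of astrocytes, the oligodendrocyte lineage and fibroblasts.

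Of the 107 kept genes of the 5 pathway lists, 0 were called at day 5 (limma, with 7 at an unadjusted p under 0.05), 8 were called at day 9 and 6 at day 12, against 0.171%, 5.89% and 5.47% of all probes. Without control array b of day 9 they numbered 0, 12 and 17, when 162, 1176 and 1444 of the 11079 probes were called.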

How the data were processed

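The RNA came from primary rat cortical neurons and was hybridised to 18 Illumina RatRef-12 arrays, 3 for each of 2 lentiviruses on 3 days, and the 6 samples of replicate a had been measured 2 times. Per the file header, the deposited table holds the mean signal intensity of each probe on each array, exported by the authors from GenomeStudio (version 1.1.1 in the submitters' processing notes) with neither normalization nor background subtraction. The authors also deposited a detection p-value for each probe and array. Columns of other samples that were not used numbered 0.

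Following the study's methods, log2 signals were converted to Z-scores on each array. Z-scores were rescaled by 1.79, the average SD over the 18 arrays. Probes detected (p-value no higher than 0.02) on 1 or more arrays were kept (11079 of 22523). The 6 groups were fitted together in limma 3.58.1 (R 4.3.3), with Benjamini-Hochberg adjustment over all kept probes and a limit of 0.05. Tables and plots were made in Python 3.11.15 with pandas 2.3.3, numpy 2.4.6 and matplotlib 3.10.9. The fit was tested on simulated data with normal noise of equal spread on all arrays. Those data held no array like control array b of day 9, so that test does not cover its influence. Precision is limited by having 3 arrays per group.

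The 5 genes, the 5 pathway lists and the marker lists were chosen with earlier results of these data known. Genes named were the 5 genes, the 3 genes most like each by Pearson's r, up to 4 called genes with the largest difference in each pathway list, and relatives of the 5 genes. Marker genes named beside them were chosen after their values were seen. Some genes that these rules name are not reported here. Tests of the 5 genes between days had been planned and were run, and their p-values are not printed because the arrays are those on which the genes were chosen. Sequences of probes came from the array file and those of promoters from RefSeq (GRCr8).

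Deviations of same-letter arrays from their group means correlated by 0.268, 0.168 and 0.377 at day 5 (replicates a, b and c), by 0.426, 0.148 and -0.198 at day 9 and by 0.0472, 0.153 and 0.014 at day 12, so that the letters were taken as pairing arrays at day 5 only. Alternatives were quantile normalization, median centring, neqc background correction (offset 16), detection on all 3 arrays of a group, no detection filter, 1 probe per symbol, only the arrays of the groups compared, the letter as a replicate block over all arrays or within a day, the second measurement of replicate a, array weights, and leaving out each array in turn.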

Additional observations from a re-analysis of the deposited data

How the results depend on the processing

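The number of probes called higher with CHD5 shRNA at days 5, 9 and 12 was 5, 404 and 247. With quantile normalization it was 26 at day 5 and 429 at day 12, with median centring 0, 30 and 49, and with neqc 15 at day 5. Detection on all 3 arrays of a group gave 10 at day 5, and no detection filter gave 212 at day 9 and 152 at day 12. The fit to only the arrays of the groups compared gave 0, 0 and 1304 by limma (with 1158 probes at an unadjusted p under 0.05 at day 9), and array weights gave 3, 213 and 1847. Without 1 array the number was 1 to 49 at day 5, 42 to 961 at day 9 and 106 to 679 at day 12. The lowest was reached without CHD5 shRNA array c of day 9 at that day and without control array a of day 12 at day 12, and the highest without control array b of day 9 at days 5 and 12 and without control array a of day 9 at day 9. With the replicate block within a day, 1 probe was called higher at day 5.

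Probes called between days 5 and 9 in control neurons (2440) numbered 1542 with median centring, 266 with only the groups compared, 960 with array weights and 1676 to 5131 without 1 array. Between days 9 and 12 in control neurons (461) they numbered 768 with quantile normalization, 163 with median centring, 3 with only the groups compared and 174 to 2238 without 1 array. Between days 5 and 9 with CHD5 shRNA (1034) they numbered 1646 with quantile normalization, 368 with median centring, 481 with no detection filter, 2876 with only the groups compared, 4028 with array weights and 472 to 2809 without 1 array. Between days 9 and 12 with CHD5 shRNA (152) they numbered 279, 42, 1674 and 2621 with quantile normalization, median centring, only the groups compared and array weights, and 67 to 544 without 1 array. The block within a day was not run for changes with time, since each block lies within 1 day.

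Genes called on 1 or more days were counted per list. In the inositol list (1) they numbered 3 with quantile normalization, 0 with median centring, 2 with neqc, with detection on all 3 arrays, with 1 probe per symbol, with the replicate block within a day and with the second measurement, 3 with the replicate block over all arrays, 8 with only the groups compared, 9 with array weights and 0 to 8 without 1 array. In the G protein list (5) they numbered 2 with median centring, 3 with no filter, 10 with only the groups compared, 12 with array weights and 3 to 11 without 1 array. In the Ly6 list (2) they numbered 1 with quantile normalization, neqc, no filter, the replicate block within a day or the second measurement, 0 with median centring and 0 to 3 without 1 array. In the ligase list (2) they numbered 4 with quantile normalization, 0 with median centring, 1 with no filter, 5 with only the groups compared or array weights and 0 to 6 without 1 array. In the MLL and TCF list (1) they numbered 5 with quantile normalization or neqc, 0 with median centring, 2 with detection on all 3 arrays or the second measurement, 7 with only the groups compared, 10 with array weights and 1 to 6 without 1 array.

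Of the changes of the 5 genes with time, which are given without a test, 3 that lay near 0 changed sign. Mllt11 from day 9 to day 12 with CHD5 shRNA (-0.01) was 0.0012 with median centring and -0.20 to 0.15 without 1 array. Gng7 in control neurons from day 5 to day 9 (0.09) was -0.018 with no detection filter, -0.00070 with the second measurement, -0.043 with array weights and -0.055 to 0.17 without 1 array. From day 9 to day 12 (0.05) it was -0.084 with quantile normalization, -0.11 with neqc, -0.0015 with detection on all 3 arrays and -0.032 to 0.19 without 1 array. Causes of these changes were not tested. A low signal over background limits Lonrf1_predicted and Ly6g6c most, and 3 arrays per group limit all values.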
